A study of Rattus norvegicus with 9 samples.

Results

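Chemokines and their receptors were followed in RNA sequencing of striatal tissue from rats, as the genes whose symbols begin with Ccl, Cxcl, Cx3cl, Xcl, Ccr, Cxcr, Ackr or Xcr and a digit. These were 53 of the 22890 genes counted, 32 ligands and 21 receptors. The fractalkine receptor Cx3cr1 falls outside that rule and is given only beside its ligand. The 9 libraries form 3 groups of 3. EDB takes its name from edaravone dexborneol, in which edaravone, a scavenger of free radicals, is combined with dexborneol. ICH stands for intracerebral hemorrhage, which is bleeding into the brain tissue, and Sham is the control group. The labels give no strain, age, sex, dose or time, and leave it unsaid whether EDB rats had a hemorrhage as well, so EDB was set against both other groups. The labels likewise do not state whether replicates are different rats. Y-linked counts, given below, settle this only for ICH 1 against ICH 2 and ICH 3. The p-values thus cover only the spread among these samples, which may in part be technical.

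Chemokines are small, mostly secreted proteins that steer leukocytes along concentration gradients, and they are named after the spacing of their first cysteines as CC, CXC, CX3C or XC ligands. Their receptors are G protein-coupled and sit mainly on leukocytes, whereas the atypical receptors (Ackr) bind ligands without G protein signalling and remove or transport them. In the brain, microglia, astrocytes, endothelium and neurons make some of them at rest, and injury adds those that attract monocytes, neutrophils and lymphocytes.

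Total counts per library ran from 14658110 in Sham 3 to 17659936 in ICH 3. The striatal marker Ppp1r1b stood at 2329 to 6172 CPM (counts divided by the TMM-scaled library total) in all 9 libraries, beside Drd1 at 239 to 397 CPM. Some libraries stood apart. EDB 3 held choroid plexus transcripts, with Ttr at 6680 CPM against 17.0 to 52.4 CPM in the other 8. ICH 1 had no counts of the Y-linked genes Kdm5d and Eif2s3y, which had 49 to 313 counts elsewhere. Hence ICH 1 did not come from the same rat as ICH 2 or ICH 3. Sham 1 and Sham 3 had albumin transcripts (Alb) at 166 and 165 CPM, against 2.27 to 25.8 CPM in all other libraries. Sham 2, at 3.21 CPM, thus differed from the other Sham libraries but lay within the range of EDB and ICH. Members with a result are therefore given for each library, and calls that depend on 1 library are named. Because levels are not scaled to transcript length, levels of different genes are not ranked against each other.

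Promoter sequence is shown first, since chemokine promoters are textbook targets of the inflammatory factor NF-kB, of AP-1 and of interferon-activated factors. RefSeq sequences of the assembly GRCr8 were matched by symbol for 39 of the 53 members, taken as the 250 bases before each start, and searched on both strands. The NF-kB consensus (kB) was found in 9 of these 39 windows (23.1%), against 2117 of 33469 windows of the same length over all genes (6.33%). The 9 were those of Ccl7, Ccl9, Ccl20, Ccr3, Cxcl1, Cxcl2, Cxcl6, Cxcl10 and Cxcl11. The AP-1 pattern TGANTCA was in 7 of the 39 (17.9%), against 6.34% of all windows, and the interferon factor pattern GAAANNGAA in 3 (7.69%), against 8.12%. No match of one pattern overlapped a match of another in these 39 windows. A match describes the letters only. The Cxcl10 window lies at chr14:15988816-15989065 (+ strand). Its kB matches on the gene's strand lie 187 and 128 bases before the start, and its interferon match at 243. The Ccl7 window lies at chr10:67513845-67514094 (+ strand), with a kB match 59 bases before the start. Cxcl10 and Ccl7 rose in ICH. Cxcl11 and Cxcl1 carry the kB pattern too, but Cxcl11 was not called and Cxcl1 fell below the count filter. Of the members, Cxcl16 and Cxcl12 had the smallest adjusted p of a rise and of a fall in ICH against Sham, and their windows hold none of the 3 patterns. The Cxcl11 window lies at chr14:15973478-15973727 (+ strand). The Cxcl1 window lies at chr14:17479322-17479571 (- strand). The Cxcl16 window lies at chr10:55669951-55670200 (- strand). The Cxcl12 window lies at chr4:152060531-152060780 (+ strand). Capitals mark the matches, and a longer run of capitals holds overlapping matches on both strands.
Cxcl10: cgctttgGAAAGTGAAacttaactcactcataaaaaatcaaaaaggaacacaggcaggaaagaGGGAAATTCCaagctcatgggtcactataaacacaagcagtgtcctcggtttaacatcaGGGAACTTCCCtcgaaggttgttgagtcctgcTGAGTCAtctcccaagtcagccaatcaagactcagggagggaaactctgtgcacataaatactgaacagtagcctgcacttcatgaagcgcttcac
Ccl7: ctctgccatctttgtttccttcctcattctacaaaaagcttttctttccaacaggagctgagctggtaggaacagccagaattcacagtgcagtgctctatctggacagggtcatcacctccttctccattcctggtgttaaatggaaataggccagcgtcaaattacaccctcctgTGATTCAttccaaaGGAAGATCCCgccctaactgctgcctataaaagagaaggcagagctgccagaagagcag
Cxcl11: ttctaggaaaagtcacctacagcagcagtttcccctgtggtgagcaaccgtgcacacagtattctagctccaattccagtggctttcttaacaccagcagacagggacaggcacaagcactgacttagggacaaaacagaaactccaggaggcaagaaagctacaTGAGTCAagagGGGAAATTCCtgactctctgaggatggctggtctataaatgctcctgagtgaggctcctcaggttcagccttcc
Cxcl1: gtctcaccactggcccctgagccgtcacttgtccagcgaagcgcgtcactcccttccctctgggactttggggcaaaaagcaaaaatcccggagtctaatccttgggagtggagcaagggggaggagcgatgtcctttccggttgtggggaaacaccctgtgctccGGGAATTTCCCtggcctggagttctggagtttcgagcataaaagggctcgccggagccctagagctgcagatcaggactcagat
Cxcl16: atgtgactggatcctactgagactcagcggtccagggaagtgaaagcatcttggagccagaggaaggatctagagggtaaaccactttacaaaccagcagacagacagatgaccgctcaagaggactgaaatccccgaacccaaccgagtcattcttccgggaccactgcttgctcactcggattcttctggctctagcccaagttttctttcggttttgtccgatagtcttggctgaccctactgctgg
Cxcl12: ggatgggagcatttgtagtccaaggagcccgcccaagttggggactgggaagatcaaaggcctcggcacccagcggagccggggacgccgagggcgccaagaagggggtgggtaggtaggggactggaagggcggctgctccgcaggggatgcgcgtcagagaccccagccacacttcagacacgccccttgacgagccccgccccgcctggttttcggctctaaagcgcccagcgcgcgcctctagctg

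In ICH the tested chemokine genes moved mostly upwards against Sham. Of the 53 members, 25 passed the filter on low counts and were tested. Genes were called by edgeR's quasi-likelihood F test at an adjusted p under 0.05 over all 14274 genes tested. In ICH against Sham, 11 members rose, 3 fell and 11 were not called, so that 56.0% of those tested were called, against 18.7% of all genes (11.4% higher and 7.3% lower). Their median log2 fold change was 1.35, and that of all tested genes was 0.01. With scaling by library size alone, 74.4% of all called genes were higher, beside 61.0% here. In EDB against ICH, 1 member fell, none rose and 24 were not called, against 0.687% of all genes called (0.056% higher and 0.631% lower). The median of the members was -0.49, and that of all genes was -0.03. In EDB against Sham, 4 members rose, 2 fell and 19 were not called, against 7.66% of all genes called (4.95% higher and 2.71% lower). The median was 0.70, beside -0.01 for all genes. Without EDB 3, ICH 1 and Sham 2 together, the members called were 13 in ICH against Sham, 0 in EDB against ICH and 8 in EDB against Sham, beside 2295, 198 and 1628 of all genes, where all libraries gave 2670, 98 and 1094. These comparisons share libraries, so the values are given side by side for each member. Groups did not overlap in 17 of the 25 members for ICH against Sham, in 10 for EDB against ICH and in 10 for EDB against Sham, where 35.6%, 25.2% and 26.1% of all genes did not overlap. A member had to have counts in at least 1 group to pass the filter, so these shares describe the tested members and not all 53. The filter also favours rises in ICH against Sham and falls in EDB against ICH. A member near 0 counts in Sham that passes through its ICH counts, such as Ccl2 or Ccl7, could only be seen to rise. Cxcr2 and Cxcr3 passed only through their ICH libraries, which also leans their EDB against ICH values downwards. The median and the separated members of EDB against ICH are thus not free of this selection.

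**Figure D1:**
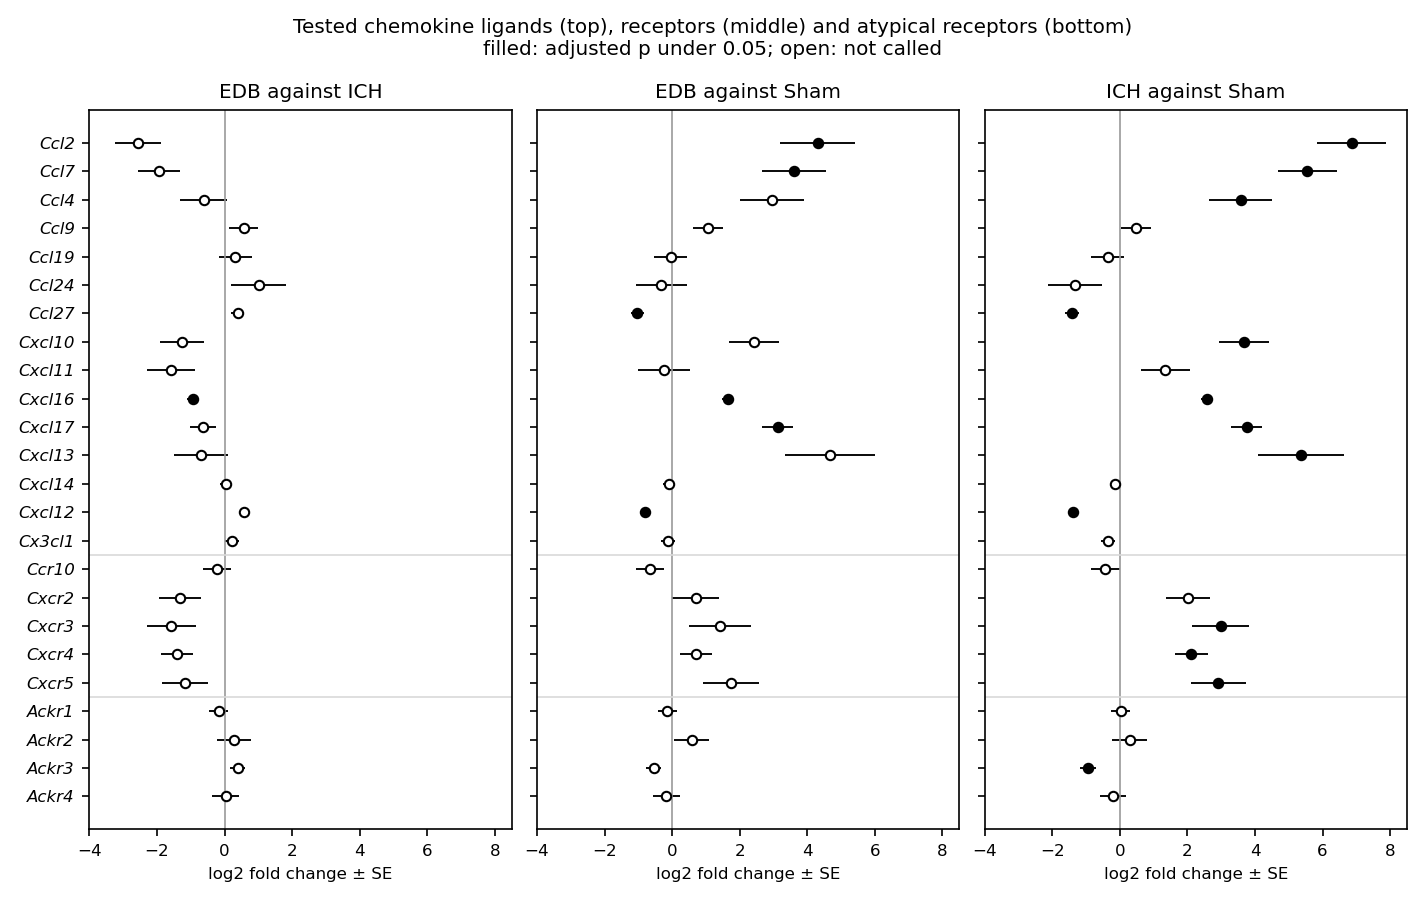
Fitted log2 fold changes with SE of 24 tested members (rows) in the 3 comparisons (panels), with filled points for adjusted p under 0.05 and open points for the others. In EDB against ICH the only filled point is Cxcl16 at -0.94, and in ICH against Sham 13 points are filled.

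Among the CC ligands, the monocyte attractants Ccl2 and Ccl7 had few counts in Sham and rose in ICH. Ccl2, a ligand of Ccr2, had 27, 19 and 4 counts in EDB 1, EDB 2 and EDB 3, 186, 64 and 61 counts in ICH, and 2, 0 and 0 counts in Sham. These are 1.67, 1.14 and 0.250 CPM in EDB, 10.8, 4.03 and 3.29 CPM in ICH, and 0.125 CPM in Sham 1, with a count of 0 allowing up to 0.205 and 0.212 CPM (3 counts) in Sham 2 and Sham 3. All EDB libraries lay below all ICH libraries and above all Sham libraries, and ICH 1 was the highest. The log2 fold change of EDB against ICH was -2.56 ± 0.69 (adjusted p = 0.108), which was not called, although DESeq2 called it (-2.55, adjusted p = 0.0113). It was -1.83 without ICH 1, and -1.38 without EDB 3, ICH 1 and Sham 2 together. EDB against Sham was called higher (4.30 ± 1.10, adjusted p = 0.0394), but not without EDB 1, EDB 2, ICH 2, Sham 1, Sham 2 or Sham 3 (adjusted p from 0.0546 to 0.133), nor by limma-voom (adjusted p = 0.0963). Without Sham 1 its fitted change there was 7.07. In ICH against Sham the rise of 6.86 ± 1.02 (adjusted p = 0.000892) kept its call without any 1 library, at 6.14 without ICH 1 and 9.60 without Sham 1. Summed over libraries, the ratio of EDB to ICH counts was 0.170, with a 95% counting interval of 0.123 to 0.229, and that of EDB to Sham was 22.9 (6.02 to 194).

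Ccl7, which binds Ccr2 and other CC receptors, had 13, 10 and 8 counts in EDB, 71, 29 and 26 counts in ICH, and 0, 2 and 0 counts in Sham. It lies beside Ccl2 in the rat genome, and the groups were again fully separated in the order ICH, EDB, Sham. Ccl7 rose by 5.55 ± 0.87 in ICH against Sham (adjusted p = 0.00129). That value was 8.33 without Sham 2, the only Sham library with counts, and 4.95 to 4.96 without ICH 1 or Sham 1. In EDB against ICH it had -1.94 ± 0.61 (adjusted p = 0.159), or -1.33 without ICH 1. In EDB against Sham it was called higher (3.61 ± 0.94, adjusted p = 0.0425), or 6.39 without Sham 2. The EDB call was lost without EDB 1, EDB 2, EDB 3, ICH 2, Sham 1 or Sham 3 (adjusted p from 0.0669 to 0.135). The summed counts in ICH were 54.7 times those in Sham after scaling, with a counting interval of 14.8 to 456.

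Ccl4, an attractant of monocytes and T cells, stood at 0.618, 1.26 and 0.375 CPM in EDB, at 1.98, 1.01 and 0.486 CPM in ICH, and at 0, 0.205 and 0.0708 CPM in Sham. EDB and ICH overlapped, and both lay above Sham. It rose by 3.57 ± 0.92 in ICH against Sham (adjusted p = 0.0202), or by 4.83 without Sham 2, and was not called without ICH 1 (2.94), Sham 1 (2.95) or Sham 3 (adjusted p from 0.0651 to 0.0863). EDB against Sham had 2.96 ± 0.95 (adjusted p = 0.0852), called by DESeq2 (adjusted p = 0.0471), and EDB against ICH had -0.61 ± 0.70 (adjusted p = 0.705), or 0.02 without ICH 1 and -1.20 without EDB 2. Without EDB 2 or Sham 1 the change of EDB against Sham was 2.37, and without Sham 2 it was 4.21. Ccl9 and Ccl24 were not called with all libraries. Ccl9, which in the mouse is a ligand of Ccr1, averaged 1.54 ± 0.26 CPM in EDB, 1.03 ± 0.35 CPM in ICH and 0.730 ± 0.20 CPM in Sham (SD, n = 3 each). Its change in EDB against Sham was 1.06 ± 0.44 (adjusted p = 0.175), with all EDB libraries above all Sham libraries. Ccl24, an attractant of eosinophils through Ccr3, averaged 0.633 ± 0.17 CPM in EDB, 0.312 ± 0.39 CPM in ICH and 0.797 ± 0.47 CPM in Sham. Ccl24 had 13 counts in ICH 1, 2 in ICH 2 and 1 in ICH 3. Its change in ICH against Sham was -1.33 ± 0.80 (adjusted p = 0.298), and without ICH 1 it was called lower (-3.06, adjusted p = 0.0466), whereas without Sham 3 it was -0.73.

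The CC ligand that fell was Ccl27, which attracts skin-homing T cells through Ccr10. It stood at 10.1, 11.3 and 14.5 CPM in EDB, at 10.3, 9.31 and 7.83 CPM in ICH, and at 24.6, 20.4 and 28.2 CPM in Sham. Every EDB and ICH library lay below every Sham library, and EDB overlapped ICH. Its log2 fold change was -1.42 ± 0.20 in ICH against Sham (adjusted p = 0.000663) and kept its call without any 1 library. In EDB against Sham it was -1.03 ± 0.20 (adjusted p = 0.0103), with the call lost without EDB 1 (adjusted p = 0.0536). EDB against ICH had 0.39 ± 0.20 (adjusted p = 0.377). In the GRCr8 gene table Ccl27 overlaps Il11ra1, an interleukin receptor gene, and since the strand setting of the counts is not given, reads of both cannot be told apart. Il11ra1 averaged 33.8 ± 2.9 CPM in EDB, 30.4 ± 3.3 CPM in ICH and 28.8 ± 0.86 CPM in Sham, with 0.08 ± 0.13 in ICH against Sham (adjusted p = 0.746). Ccl19, a ligand of Ccr7 and a neighbour of Ccl27, had 0.31 ± 0.49 in EDB against ICH, -0.05 ± 0.49 in EDB against Sham and -0.36 ± 0.49 in ICH against Sham. All its libraries lay between 0.562 and 1.67 CPM, and it was not called.

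Among the CXC ligands, Cxcl16 gave the clearest differences between all 3 groups. Cxcl16 is made as a membrane protein of phagocytes, endothelium and glia, and once cleaved it attracts cells that carry Cxcr6. It stood at 19.8, 20.9 and 16.1 CPM in EDB, at 41.1, 34.5 and 33.3 CPM in ICH, and at 6.87, 6.29 and 4.95 CPM in Sham. No library of 1 group reached the range of another. It was the only member called in EDB against ICH, where it fell by 0.94 on the log2 scale (SE 0.17, adjusted p = 0.0439). The direction was the same without any 1 library (-1.02 to -0.84), but the call was lost without EDB 1, EDB 2, EDB 3, ICH 1, ICH 2, ICH 3, Sham 1 or Sham 3 (adjusted p from 0.0522 to 0.151). Against Sham it was higher in EDB (1.64 ± 0.18, adjusted p = 0.000728) and in ICH (2.58 ± 0.18, adjusted p = 2.01e-05), and both calls held without any 1 library. Zmynd15, which overlaps Cxcl16 in the gene table, averaged 0.371 ± 0.28 CPM in EDB, 0.531 ± 0.16 CPM in ICH and 0.198 ± 0.17 CPM in Sham.

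Cxcl17, a chemokine of mucosal surfaces, stood at 14.5, 15.5 and 4.75 CPM in EDB, at 18.6, 16.2 and 18.9 CPM in ICH, and at 0.874, 1.98 and 1.13 CPM in Sham. All EDB libraries were above Sham and below ICH, with EDB 3 far below EDB 1 and EDB 2. EDB 3 also had the lowest summed microglia markers of the EDB libraries (473 CPM) and the choroid plexus transcripts. Their part in its level was not tested. Cxcl17 rose in EDB against Sham (3.12 ± 0.45, adjusted p = 0.00220) and in ICH against Sham (3.75 ± 0.45, adjusted p = 0.000239), with calls that held without any 1 library. Against ICH, EDB had -0.63 ± 0.38 (adjusted p = 0.451).

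Of the neighbouring genes Cxcl9, Cxcl10 and Cxcl11, whose products are interferon-induced ligands of Cxcr3, Cxcl10 rose in ICH. It stood at 5.94, 7.67 and 2.31 CPM in EDB, at 24.3, 9.37 and 4.37 CPM in ICH, and at 0.562, 1.91 and 0.495 CPM in Sham. ICH 1 was the highest library, EDB overlapped ICH, and both lay above Sham. The rise in ICH against Sham was 3.67 ± 0.74 (adjusted p = 0.00611), and it was 2.79 without ICH 1 and 4.56 without Sham 2. EDB against Sham had 2.42 ± 0.73 (adjusted p = 0.0721), and was called without ICH 1, ICH 3 or Sham 2 (adjusted p from 0.0439 to 0.0494) and by DESeq2 (adjusted p = 0.00425). In EDB against ICH the change was -1.25 ± 0.64 (adjusted p = 0.371), but -0.37 without ICH 1, and -0.0096 without EDB 3, ICH 1 and Sham 2 together. Cxcl11 averaged 0.466 ± 0.32 CPM in EDB, 1.42 ± 1.0 CPM in ICH and 0.546 ± 0.36 CPM in Sham, with 1.35 ± 0.71 in ICH against Sham (adjusted p = 0.227) and -1.58 ± 0.72 in EDB against ICH (adjusted p = 0.309). Without ICH 1 these Cxcl11 values were 0.61 and -0.84, and without EDB 2 the second was -2.31. Cxcl9 fell below the count filter, with 9 counts in EDB, 24 in ICH and 16 in Sham. Cxcl10 and Cxcl11 overlap Art3 in the gene table. Art3 averaged 14.5 ± 1.1 CPM in EDB, 12.7 ± 1.5 CPM in ICH and 14.8 ± 0.55 CPM in Sham, and was not called (-0.22 ± 0.16 in ICH against Sham, adjusted p = 0.390).

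Cxcl13, which attracts B cells through Cxcr5, had 15, 7 and 15 counts in EDB, 30, 30 and 2 counts in ICH, and 0, 0 and 1 counts in Sham. ICH 3 thus lay below all EDB libraries. It rose by 5.37 ± 1.28 in ICH against Sham (adjusted p = 0.0138), with the call lost without Sham 1 (adjusted p = 0.0523) or without EDB 3, ICH 1 and Sham 2 together (adjusted p = 0.0979), and the value was 7.35 without Sham 3 and 3.93 by limma-voom. The ratio of summed counts was 53.8, with a counting interval of 9.31 to 2159. EDB against Sham had 4.67 ± 1.33 (adjusted p = 0.0573) and was called without ICH 3 (adjusted p = 0.0162), with no filter on low counts (adjusted p = 0.0491) and by DESeq2 (adjusted p = 0.0137). The change of EDB against ICH was -0.70 ± 0.80 (adjusted p = 0.705).

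**Figure D2:**
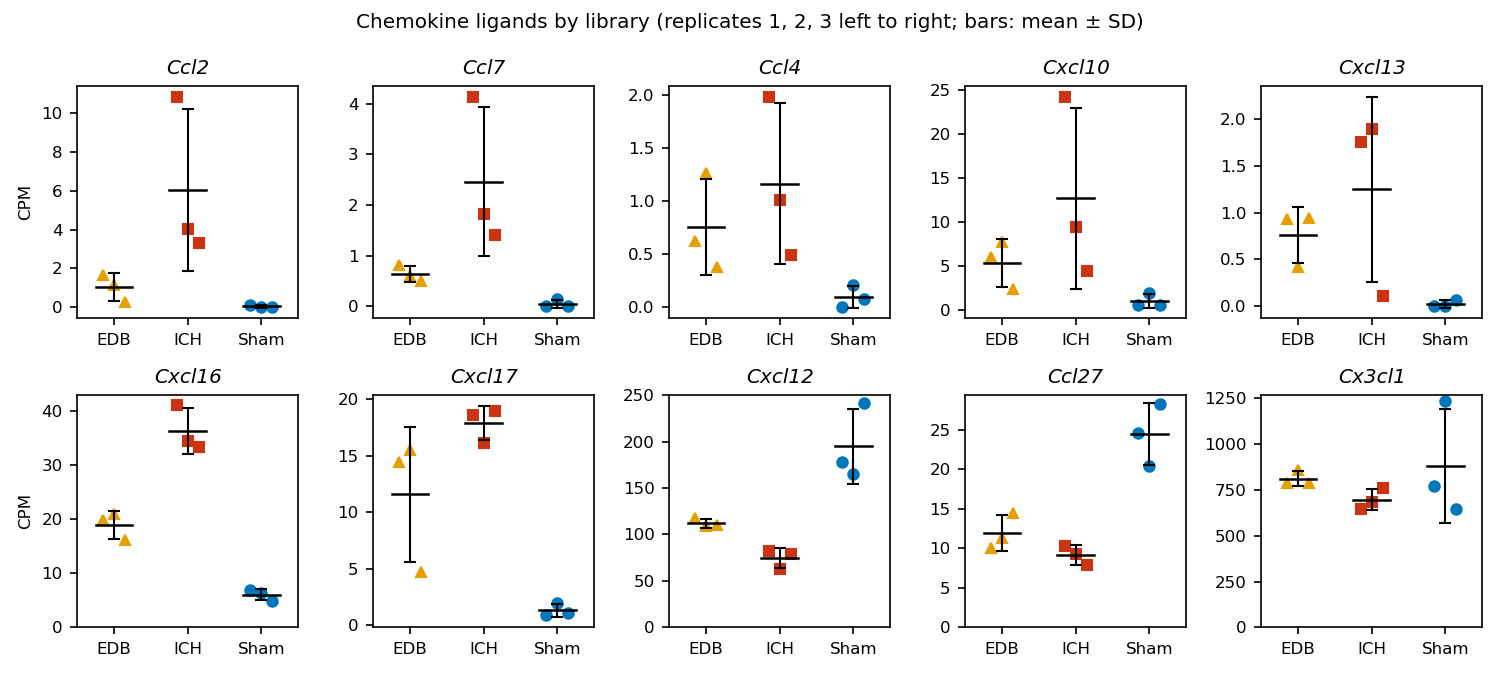
CPM of 10 chemokine ligands in each library (points, linear axes), with mean and SD per group (bars). For Cxcl16 the EDB libraries (16.1 to 20.9 CPM) lie between ICH (33.3 to 41.1 CPM) and Sham (4.95 to 6.87 CPM), whereas Cxcl12 and Ccl27 are highest in Sham.

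Cxcl12, which in the resting brain is made by vessels, meninges and neurons and signals through Cxcr4, was lower in both other groups than in Sham. It stood at 118, 109 and 110 CPM in EDB, at 81.9, 62.5 and 79.5 CPM in ICH, and at 178, 165 and 241 CPM in Sham. The 3 groups did not overlap. Its change was -1.38 ± 0.16 in ICH against Sham (adjusted p = 0.000182) and -0.80 ± 0.16 in EDB against Sham (adjusted p = 0.0120), and both calls held without any 1 library. In EDB against ICH it was 0.59 ± 0.16 (adjusted p = 0.109), which was not called, with all EDB libraries above all ICH libraries. DESeq2 called that difference (0.61, adjusted p = 0.0156). Summed endothelial markers ran from 208 to 232 CPM in EDB, 195 to 258 CPM in ICH and 251 to 443 CPM in Sham, and their part in the Cxcl12 values was not tested.

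The remaining ligands with ample counts showed no called change. Cx3cl1, the fractalkine of neurons that tethers to the cell membrane and acts on microglial Cx3cr1, stood at 789, 857 and 789 CPM in EDB, at 647, 683 and 761 CPM in ICH, and at 768, 1234 and 644 CPM in Sham. Sham 2 was the highest library. Its changes were 0.22 ± 0.21 in EDB against ICH, -0.12 ± 0.21 in EDB against Sham and -0.34 ± 0.21 in ICH against Sham (adjusted p = 0.640, 0.781 and 0.300). Without Sham 2 the change in ICH against Sham was -0.02 and that in EDB against Sham was 0.20. Its receptor Cx3cr1 stood at 261, 303 and 175 CPM in EDB, at 332, 335 and 336 CPM in ICH, and at 114, 99.7 and 103 CPM in Sham. Cx3cr1 was called higher in EDB against Sham (1.22 ± 0.17, adjusted p = 0.00204) and in ICH against Sham, and had -0.44 ± 0.17 in EDB against ICH (adjusted p = 0.236). Cxcl14, made by neurons and epithelia, had 1669, 1571 and 1752 counts in EDB, 1293, 1542 and 2365 counts in ICH, and 1585, 1732 and 1568 counts in Sham, and its fitted changes lay between -0.13 and 0.03.

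Among the receptors, Cxcr3, Cxcr4 and Cxcr5 rose in ICH against Sham. None of the 10 tested receptors was called in either EDB comparison. Of all genes, 0.687% were called in EDB against ICH and 7.66% in EDB against Sham. With 10 receptors, the absence of calls lies near these shares. Cxcr4, the receptor of Cxcl12, stood at 6.43, 1.62 and 5.87 CPM in EDB, at 17.8, 11.7 and 7.40 CPM in ICH, and at 3.37, 2.46 and 2.62 CPM in Sham. ICH lay above both other groups, and EDB 2 was below every Sham library. The rise in ICH against Sham was 2.12 ± 0.48 (adjusted p = 0.0105), and the call held without any 1 library but not without EDB 3, ICH 1 and Sham 2 together (adjusted p = 0.0837). For EDB against ICH it was -1.41 ± 0.46 (adjusted p = 0.176) and EDB against Sham 0.71 ± 0.48 (adjusted p = 0.418).

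Cxcr3, the receptor of Cxcl9, Cxcl10 and Cxcl11 on T and NK cells, had 7, 1 and 7 counts in EDB, 13, 17 and 18 counts in ICH, and 2, 3 and 0 counts in Sham. All ICH libraries lay above all others. Cxcr3 passed the filter on low counts only through ICH, so this order was a condition of its being tested. It rose by 2.98 ± 0.83 in ICH against Sham (adjusted p = 0.0292), with a value of 3.68 without Sham 2, and was not called without ICH 1, ICH 2, ICH 3, Sham 1 or Sham 3 (adjusted p from 0.0616 to 0.0895). The value for EDB against ICH was -1.57 ± 0.71 (adjusted p = 0.308). Cxcr5, the receptor of Cxcl13 on B cells, had 11, 21 and 2 counts in EDB, 35, 13 and 34 counts in ICH, and 3, 5 and 1 counts in Sham. It rose by 2.92 ± 0.80 in ICH against Sham (adjusted p = 0.0274) and was not called without ICH 1, ICH 3, Sham 1 or Sham 3 (adjusted p from 0.0727 to 0.0920). EDB against ICH had -1.17 ± 0.69 (adjusted p = 0.433), or -1.94 without EDB 2. Cxcr5 overlaps Bcl9l in the gene table, which averaged 89.7 ± 5.4 CPM in EDB, 96.9 ± 12.5 CPM in ICH and 132 ± 19.6 CPM in Sham and fell in ICH against Sham (-0.45 ± 0.14, adjusted p = 0.0484). Cxcr2, the neutrophil receptor of Cxcl1 and its relatives, averaged 0.473 ± 0.16 CPM in EDB, 1.19 ± 0.65 CPM in ICH and 0.283 ± 0.19 CPM in Sham. Its change of 2.02 ± 0.66 in ICH against Sham was not called (adjusted p = 0.0550), though it was when libraries were scaled by size alone (2.10, adjusted p = 0.0466). EDB against ICH had -1.32 ± 0.62 (adjusted p = 0.322).

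Ccr10, the receptor of Ccl27, averaged 1.38 ± 0.71 CPM in EDB, 1.62 ± 0.23 CPM in ICH and 2.18 ± 0.27 CPM in Sham. It was not called, with -0.43 ± 0.42 in ICH against Sham (adjusted p = 0.544). It overlaps Cntnap1, an axonal gene that averaged 558 ± 42.9 CPM in EDB, 398 ± 22.5 CPM in ICH and 952 ± 226 CPM in Sham and fell in ICH against Sham (-1.26 ± 0.17, adjusted p = 0.000440). Reads of Ccr10 and Cntnap1 cannot be told apart here.

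Of the 4 atypical receptors, Ackr3, which binds Cxcl12 and removes it, was the one called. It had 177, 167 and 260 counts in EDB, 147, 140 and 202 counts in ICH, and 240, 278 and 288 counts in Sham. In CPM, all ICH libraries were below all Sham libraries, and EDB overlapped both. Ackr3 had -0.94 ± 0.22 in ICH against Sham (adjusted p = 0.0133), with the call lost without ICH 1 (adjusted p = 0.0549), -0.55 ± 0.22 in EDB against Sham (adjusted p = 0.164) and 0.39 ± 0.22 in EDB against ICH (adjusted p = 0.414). Ackr1 of venules and red cells averaged 6.04 ± 1.3 CPM in EDB, 6.79 ± 1.8 CPM in ICH and 6.66 ± 1.6 CPM in Sham. Ackr2, which scavenges inflammatory CC ligands, averaged 3.30 ± 1.3 CPM in EDB, 2.69 ± 1.4 CPM in ICH and 2.22 ± 1.2 CPM in Sham. Ackr4, which scavenges Ccl19 and Ccl21, averaged 2.17 ± 0.84 CPM in EDB, 2.12 ± 0.61 CPM in ICH and 2.45 ± 0.61 CPM in Sham. Fitted changes of these 3 lay between -0.20 and 0.58, and none was called. In this way the Cxcl12 axis held a lower ligand, a higher Cxcr4 and a lower Ackr3 in ICH than in Sham.

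**Figure D3:**
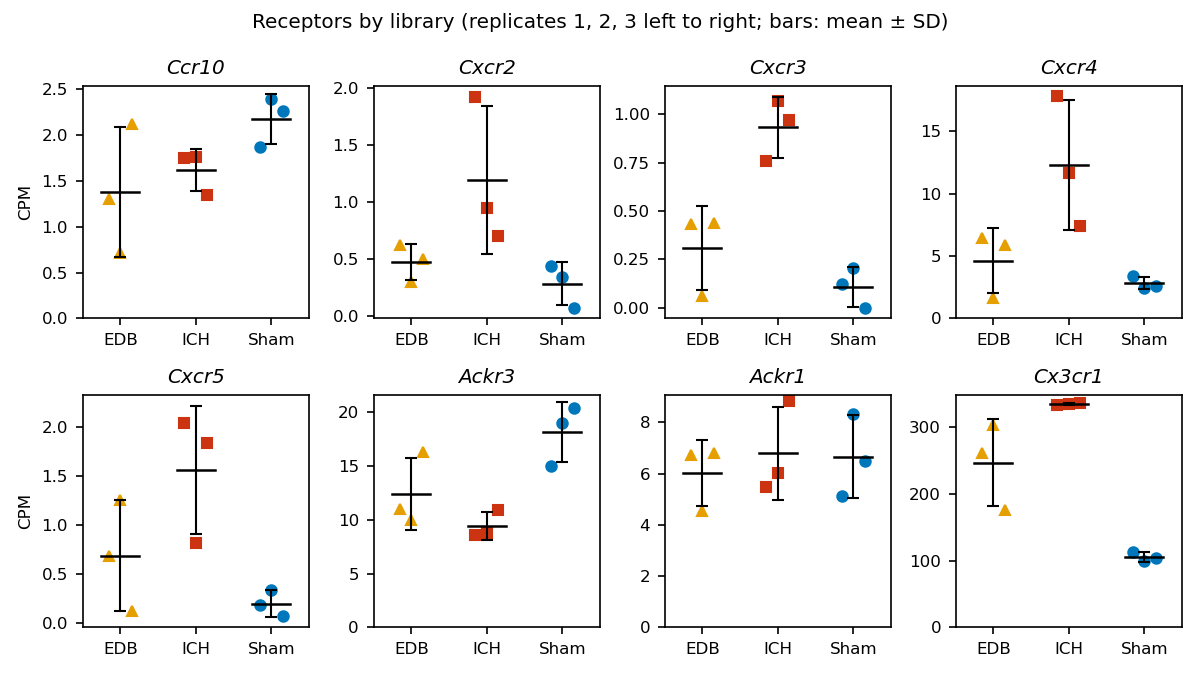
CPM of 7 receptors of the group and of Cx3cr1 in each library (points, linear axes), with mean and SD per group (bars). Cxcr3, Cxcr4 and Cxcr5 have their highest group mean in ICH, Ackr3 in Sham, and Ackr1 shows overlapping groups.

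The other 28 members failed the count filter and have no test. Of these, 3 had no counts in any library (Ccl1, Ccl26 and Ccr4), 10 had 1 to 9 counts over all 9 libraries, and 15 had 10 or more. The 10 were Ccl11, Ccl20, Ccl21, Ccl25, Ccl28, Ccr1l1, Ccr8, Ccr9, Cxcl6 and Xcl1. Among the 15, the summed CPM was highest in ICH for 11, in EDB for 2 (Ccr3 and Ccr6) and in Sham for 2 (Ccl17 and Ccl5). The same split over all untested genes was not taken, so it is not read as a trait of the members. Some of these orders rest on few counts, such as Cxcl3 with 7 in ICH and 5 in EDB. Sums below are over 3 libraries and cover counting error only. Ccr2, the receptor of Ccl2 on monocytes, had 2 counts in EDB, 17 in ICH and 3 in Sham, and the ratio of EDB to ICH was 0.124 with a counting interval of 0.0139 to 0.523. Cxcl1, a neutrophil attractant, had 3 counts in EDB, 29 in ICH and 3 in Sham, with ratios of 0.109 (0.0213 to 0.352) for EDB to ICH and 8.39 (2.60 to 43.0) for ICH to Sham. In each ICH library Cxcl1 had more counts than in any other, at 9, 6 and 14 counts. Ccr7 had 13 counts in EDB, 29 in ICH and 10 in Sham.

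Cxcl2 and Cxcl3, close relatives of Cxcl1, had 10 and 5 counts in EDB, 14 and 7 in ICH, and 3 and 0 in Sham. Whether reads were split between these related genes was not tested. Members without any count in Sham were Ccl3, Ccl12, Cxcl3, Cxcr1 and Xcr1 among the 15. Ccl12, which in the mouse acts on Ccr2, had 5, 6 and 5 counts in ICH, and Cxcr1, another neutrophil receptor, had 9, 5 and 2. Against 0 counts in Sham, the 95% counting interval of the ratio of ICH to Sham began at 3.35 for each of these genes. It began at 2.41 for Ccl3, an attractant of macrophages, and for Xcr1, the Xcl1 receptor of dendritic cells. For EDB to Sham it began at 1.32 for Ccl3, whose 7 EDB counts were all in EDB 2. Ccl5, an attractant of T cells, had 15 counts in EDB, 16 in ICH and 14 in Sham. The ICH to Sham ratio of Ccl5 was 0.992, with an interval of 0.454 to 2.19, so a change within that range was not detectable at this depth. Ccr6 had 18 counts in EDB, 12 in ICH and 2 in Sham, and Cxcr6, the receptor of Cxcl16, had 6, 10 and 5.

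**Figure D4:**
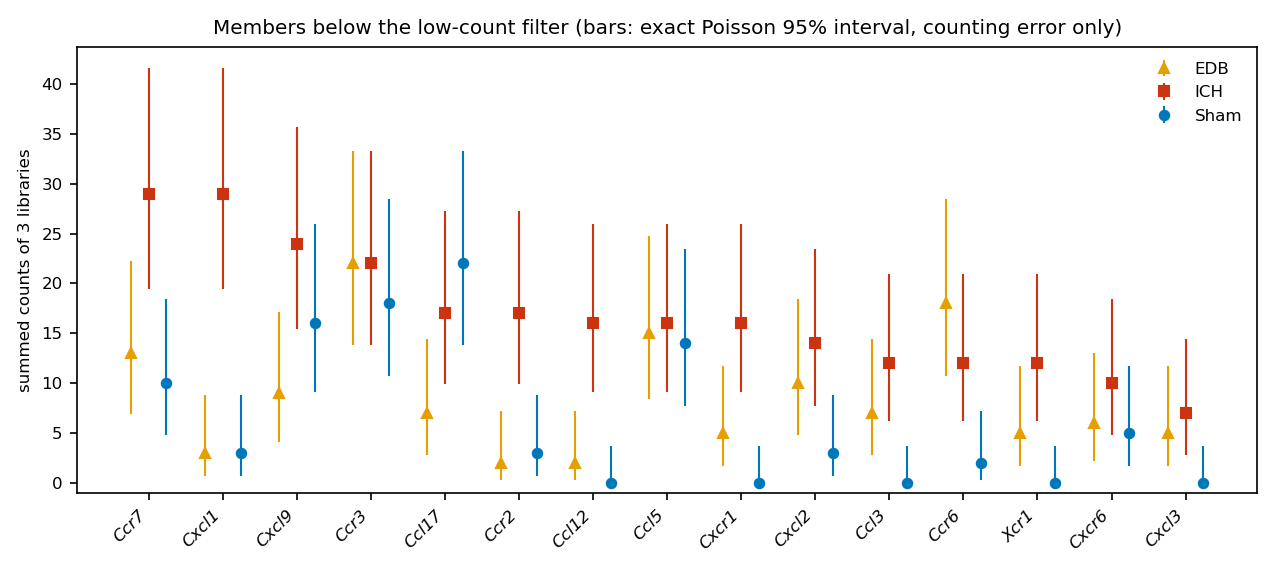
Counts summed over the 3 libraries of each group for the 15 untested members with 10 or more counts, with exact Poisson 95% intervals. Cxcl1 and Ccr2 have 29 and 17 counts in ICH and at most 3 in EDB and Sham, whereas Ccl5 and Ccr3 have overlapping intervals.

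Neighbouring members were compared by their place in the genome. With at most 3 protein-coding genes between members, the GRCr8 gene table has 9 runs that hold 32 of the 53 members. In the run of Ccl2, Ccl7, Ccl11, Ccl12 and Ccl1, both tested members rose in ICH against Sham. In that of Cxcl11, Cxcl10 and Cxcl9, Cxcl10 rose and Cxcl11 was not called. For both, all ICH libraries lay above all Sham libraries, where 35.6% of all genes did not overlap. For Cxcl11 this rested on 0.818 CPM in ICH 2 against 0.812 CPM in Sham 1, with 13 counts in each. In that of Ccl27, Ccl19 and Ccl21, 1 of 2 tested members fell. The run of Cxcl2, Cxcl1, Cxcl3 and Cxcl6 had no tested member.

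Other genes, listed by a role in or near chemokine signalling, were called mostly in the comparisons with Sham. The first list held ligands, receptors and related genes outside the naming rule, the last including Cmtm3, Cmtm6, Cmtm7 and Dpp4. Of its 12 tested genes, 7 rose in ICH against Sham and 5 were not called. None of the 12 was called in EDB against ICH, and 5 rose in EDB against Sham. Of all genes, 11.4% rose in ICH against Sham, 0.687% were called in EDB against ICH and 4.95% rose in EDB against Sham. The same shares stand beside the counts of the lists below. Cmklr1, the chemerin receptor, stood at 33.8, 35.1 and 20.5 CPM in EDB, at 57.1, 48.9 and 40.5 CPM in ICH, and at 7.06, 12.2 and 14.3 CPM in Sham. It rose in EDB against Sham (1.42 ± 0.28, adjusted p = 0.0108) and in ICH against Sham (2.13 ± 0.28, adjusted p = 0.000409). Pf4, a CXC chemokine of platelets and macrophages, had 63, 21 and 17 counts in EDB, 97, 36 and 63 counts in ICH, and 7, 5 and 8 counts in Sham, and rose in ICH against Sham (3.05 ± 0.61, adjusted p = 0.00534). Ppbp, a platelet chemokine, had 1 count in EDB 2 and none elsewhere. Cd74, Mif and the decoy-like Ccrl2 were not called, with changes in ICH against Sham of 1.73 ± 0.56, -0.18 ± 0.14 and 0.55 ± 0.49. Among the 7 that rose in ICH against Sham were Cmtm7, Cmtm6 and Cmtm3, by 2.25 ± 0.22, 1.03 ± 0.12 and 1.61 ± 0.19. These are neither chemokine ligands nor chemokine receptors.

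Of 28 tested genes that carry signals below the receptors, 16 rose in ICH against Sham (median 0.71), none was called in EDB against ICH (median -0.47), and 10 rose in EDB against Sham (median 0.44). The GTPase Rac2 had 2.55 ± 0.24 in EDB against Sham (adjusted p = 0.000467) and -0.74 ± 0.22 in EDB against ICH (adjusted p = 0.137). Its activator Vav1 rose by 3.04 ± 0.26 in ICH against Sham (adjusted p = 3.79e-05), and the G protein subunit Gnai2 by 0.67 ± 0.11 (adjusted p = 0.00173). Of 9 NF-kB components, 5 rose in ICH against Sham, among them Nfkb2 (0.94 ± 0.18, adjusted p = 0.00427) and Relb (1.24 ± 0.26, adjusted p = 0.00726), and none was called in EDB against ICH or in EDB against Sham. The 4 tested interferon factors (Irf1, Irf7, Irf8 and Stat2) rose in both EDB and ICH against Sham, and none was called in EDB against ICH. Irf8 had 1.67 ± 0.22 in EDB against Sham and 2.36 ± 0.22 in ICH against Sham.

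Summed monocyte and macrophage, neutrophil and astrocyte markers each separated the 3 groups, whereas lymphocyte markers overlapped between groups. Summed astrocyte markers ran from 5681 to 6590 CPM in EDB, 8322 to 8474 CPM in ICH and 3528 to 4236 CPM in Sham. Within them, Gfap averaged 3233 ± 491 CPM in EDB, 4915 ± 329 CPM in ICH and 484 ± 73 CPM in Sham. In bulk tissue, fewer cells of a type and less RNA per cell cannot be told apart. Summed over 9 microglia markers, levels ran from 473 to 815 CPM in EDB, 786 to 937 CPM in ICH and 294 to 367 CPM in Sham, with EDB and ICH overlapping. For 9 monocyte and macrophage markers they ran from 170 to 240 CPM in EDB, 454 to 765 CPM in ICH and 52.9 to 83.4 CPM in Sham. The highest of these was ICH 1, which was also highest for Ccl2, Ccl7, Ccl4, Cxcl10 and Cxcr4. ICH 1 was also the library without Y-linked counts, and the part of that difference was not tested. Most of the monocyte and macrophage sum was Lyz2, at 125 ± 42.6 CPM in EDB, 446 ± 127 CPM in ICH and 39.1 ± 9.0 CPM in Sham. For 8 neutrophil markers they ran from 21.6 to 38.7 CPM in EDB, 55.2 to 68.8 CPM in ICH and 8.74 to 11.5 CPM in Sham. Most of that sum was Csf3r, a growth factor receptor, at 29.1 ± 9.5 CPM in EDB, 53.3 ± 5.1 CPM in ICH and 7.71 ± 0.92 CPM in Sham. The separation of this sum thus rests mainly on Csf3r. It had 114, 106 and 124 counts in Sham, where Mpo had 0, 1 and 0. Which cells Csf3r came from was not tested, so the sum is no measure of neutrophils alone. Of the granule genes, Mpo and Elane had at most 2 counts in any library, Ngp at most 21, and Mmp8 had 2, 2 and 5 counts in EDB, 46, 5 and 15 in ICH, and 1, 3 and 3 in Sham. The 9 T cell markers overlapped between groups, at 18.9 to 22.7 CPM in EDB, 20.6 to 31.0 CPM in ICH and 15.9 to 23.0 CPM in Sham. Of the T cell receptor complex, Cd3e had 6, 17 and 33 counts in EDB, 4, 13 and 22 in ICH, and 15, 22 and 13 in Sham, and Cd3d and Cd3g had at most 3 in any library. Summed B cell markers lay between 0.719 and 2.10 CPM in all libraries, and NK cell markers between 0.216 and 0.812 CPM. The part of cell numbers in the chemokine values was not tested.

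By single genes, the microglia list had 4 of 8 tested genes higher in ICH against Sham, 0 called in EDB against ICH, and 3 higher in EDB against Sham. The monocyte and macrophage list had 6 of 8 higher, 1 lower and 3 higher in the same order, the 1 lower gene being the lysozyme gene Lyz2 (-1.84 ± 0.27 in EDB against ICH, adjusted p = 0.0244). The neutrophil list had 3 of 4 higher, 0 called and 1 higher, and the T cell list 1 of 6 higher (Cd6), 0 called and 1 higher. Jchain was the only B cell gene tested and was not called, and no NK cell gene was tested. The endothelial list had 1 of 6 lower (Flt1) in each of EDB and ICH against Sham. The astrocyte list had 2 of 7 higher and 1 lower in ICH against Sham and 1 higher and 1 lower in EDB against Sham. Of 6 meningeal fibroblast genes, 1 was higher in ICH against Sham, and of 8 striatal projection neuron genes, 4 were lower. Of 6 genes listed for liver, 1 was higher in EDB against Sham (Tf, 1.22 ± 0.32, adjusted p = 0.0433). The other 5 had negative changes there that were not called, and the median over the list was -2.52. Tf did not follow Alb, since Sham 2 was the highest Sham library for Tf (1595 CPM) and the lowest for Alb (3.21 CPM). The rise of Tf is therefore not read as one of liver transcripts. No choroid plexus or red blood cell gene was called in any comparison.

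**Figure D5:**
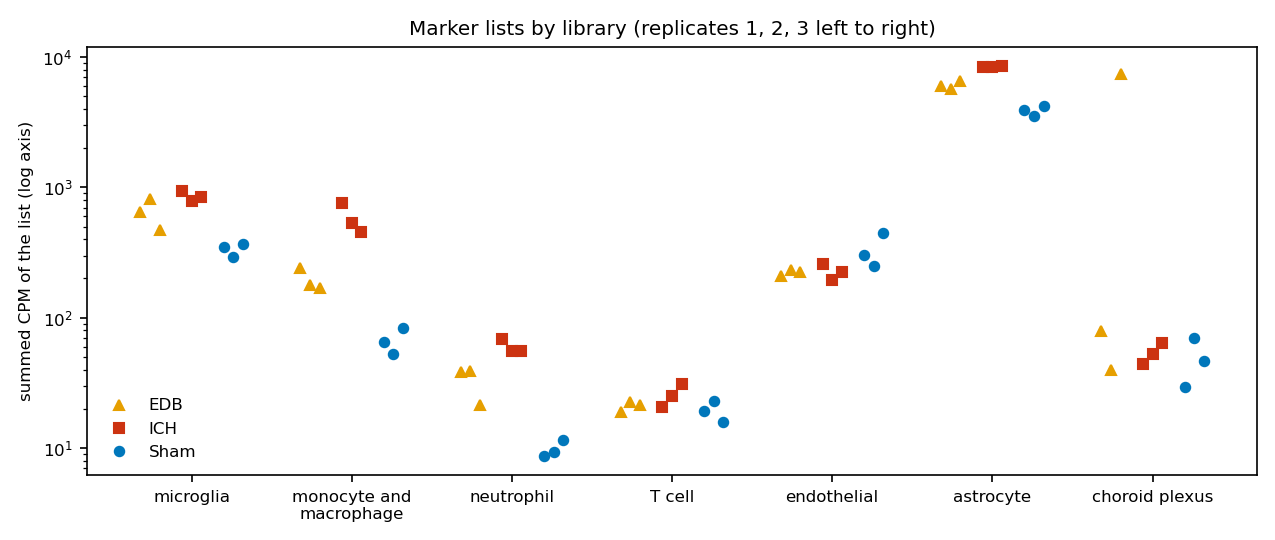
Summed CPM of 7 marker lists in each library (points, log axis). Monocyte and macrophage markers lie at 454 to 765 CPM in ICH, above EDB (170 to 240 CPM) and Sham (52.9 to 83.4 CPM), and EDB 3 stands out for choroid plexus markers at 7392 CPM.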

How the data were processed

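RNA of striatal tissue was sequenced in 9 libraries of 3 groups. The deposited files hold raw read counts per gene, 1 library per file. Per the submitters' processing notes, the authors named cutadapt, HISAT2, HTSeq and limma and the rat build Rnor_6.0. Not given in the sources used here: versions, the role of each tool, the annotation release and the strand setting.

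The analysis used edgeR 4.0.16 (R 4.3.3): filterByExpr by group, TMM scaling, 1 quasi-likelihood model with a mean per group over all 9 libraries and robust dispersions, and F tests of the 3 pairs of groups with Benjamini-Hochberg adjustment over 14274 genes. SE is the log2 fold change divided by the root of F. CPM use TMM-scaled totals. Counting intervals are exact Poisson intervals for sums and exact binomial intervals for ratios, at 95%, and cover counting error only, since PCR copies are not independent molecules. The procedure was tested on simulated data. Alternatives were RLE scaling, library size only, no filter, 1 CPM in 3 libraries, DESeq2 1.42.0, limma-voom (limma 3.58.1), only the libraries of the 2 groups compared, a replicate block, and leaving out each library. Another, without EDB 3, ICH 1 and Sham 2, was chosen after seeing the data.

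All 53 members enter the counts. A withheld item is not reported here, and otherwise every tested member has its values, untested members with 10 or more counts their sums, and list genes were named by smallest p or from a short set list. The members and lists were chosen with earlier results of these data known, and the promoter patterns were revised after a first search had been seen. Gene order, overlaps and promoters come from RefSeq tables of GRCr8, matched by symbol for names and sequence only, since the counts rest on another build.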

Additional observations from a re-analysis of the deposited data

How the results depend on the processing

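Among the tested members, the calls of Cxcl16, Cxcl17 and Cxcl12 against Sham, in EDB and in ICH, and those of Ccl2, Ccl7, Ccl27 and Cxcl10 in ICH held under every alternative run. Of 1325 values of single members under the alternatives, 1221 kept direction and side of the threshold, 47 lost a call, 16 gained one and 41 changed sign, 0 of them in a called result. The count of members called in ICH against Sham ran from 9 to 14 without 1 library (14 with all), in EDB against ICH from 0 to 1 (1 with all) and in EDB against Sham from 3 to 8 (6 with all). It was 3 with DESeq2 in EDB against ICH, where Ccl2 (-2.55, adjusted p = 0.0113) and Cxcl12 (0.61, adjusted p = 0.0156) joined Cxcl16. All genes called without 1 library ran from 1769 to 2624 in ICH against Sham (2670 with all), 8 to 321 in EDB against ICH (98 with all) and 508 to 1661 in EDB against Sham (1094 with all). In EDB against ICH they were 696 with DESeq2, 182 with limma-voom and 58 with the replicate block, and in EDB against Sham 1796 with DESeq2. Without EDB 3, ICH 1 and Sham 2 together, 198 genes and 0 members were called in EDB against ICH, where Cxcl16 had -0.74 (adjusted p = 0.0912), and Cxcr4 and Cxcl13 lost their calls in ICH against Sham (adjusted p = 0.0837 and 0.0979). The cause of these shifts was not tested.

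The labels give the groups the same replicate numbers. Over the 9 same-numbered pairs the correlation of deviations from the group mean ran from -0.311 to 0.245. Over pairs with different numbers it ran from -0.230 to 0.332. Same-numbered libraries thus did not stand out, but 3 libraries a group are too few to exclude a pairing. With the replicate block, 12 members were called in ICH against Sham, 1 in EDB against ICH and 6 in EDB against Sham, beside 2093, 58 and 801 genes. Among the members, Cxcr3 then lost its call in ICH against Sham (adjusted p = 0.0622) and Ccl7 in EDB against Sham (adjusted p = 0.0578), where Cxcl10 gained one (adjusted p = 0.0323). Scaling by library size alone moved the median of all genes by 0.10 in ICH against Sham and raised the share of higher among called genes to 74.4% from 61.0%.

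In members not called, these fitted changes changed sign. With RLE scaling, Ackr1 in ICH against Sham had -0.0022. With DESeq2, Ackr1 in ICH against Sham had -0.0012. With scaling by library size only, Ackr4 in EDB against ICH had -0.046 and Cxcl14 in EDB against ICH had -0.045. With limma-voom, Ackr4 in EDB against ICH had -0.015 and Cxcl13 in EDB against ICH had 0.011. With libraries left out, the log2 fold changes of ICH against Sham ran for Ackr1 from -0.21 to 0.36, Ackr2 from -0.23 to 0.73, Ackr4 from -0.45 to 0.093, Cx3cl1 from -0.52 to 0.035 and Cxcl14 from -0.34 to 0.10. With libraries left out, the log2 fold changes of EDB against ICH ran for Ackr1 from -0.40 to 0.068, Ackr2 from -0.073 to 0.81, Ackr4 from -0.31 to 0.28, Ccl4 from -1.20 to 0.34, Ccr10 from -0.68 to 0.081 and Cxcl14 from -0.19 to 0.25. With libraries left out, the log2 fold changes of EDB against Sham ran for Ackr1 from -0.31 to 0.056, Ackr4 from -0.51 to 0.27, Ccl19 from -0.35 to 0.41, Ccl24 from -0.57 to 0.27, Cx3cl1 from -0.30 to 0.22 and Cxcl11 from -0.96 to 0.16.

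Depth limits the members below about 1 CPM, where 3 counts make 0.162 to 0.212 CPM and fitted changes depend on single counts.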
